A study of Mus musculus with 4 samples.

Results

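Guca2a, Guca2b and Gucy2c encode the 2 guanylin peptides and the receptor that reads them, and all 3 genes were found by symbol among the 28694 gene entries of every count table. Guanylin (Guca2a) and uroguanylin (Guca2b) are small peptides that intestinal epithelial cells secrete into the lumen. Both bind guanylate cyclase C (Gucy2c), a membrane receptor of the same epithelium, which then makes cyclic GMP inside the cell. Cyclic GMP acts through a membrane-bound kinase on the chloride channel Cftr and on sodium-hydrogen exchange, so that salt and water enter or stay in the lumen. Bacterial heat-stable enterotoxins use the same receptor.

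The data are droplet single-cell RNA counts from sorted intestinal cells of RedMUC298trTg mice, 6-8 weeks old, whose mCherry signal was used in the sort and whose gate was set against a C57Bl6 mouse. The distal colon (DC) and the small intestine's 8th section (Si8) gave 2 libraries each, with no other treatment or genotype, so both tissues carry the transgene. The labels give the cells as goblet cells and describe sorting on presence or absence of mCherry, without saying which gate each library came from or how many mice it held. Where nothing says that the libraries came from separate animals, the p-values below measure only the spread between these libraries, which may be technical. The tests pool that spread over genes.

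The libraries held 1937 (DC 1), 5098 (DC 2), 1536 (Si8 1) and 2256 (Si8 2) cell barcodes with 26075303 to 66880457 unique molecular identifiers (UMIs, 1 per captured RNA molecule), and 10243 of 10827 cells were kept. Pairs of libraries shared 1 to 16 barcodes. Cells were clustered within each tissue, with the genes of interest and all marker genes left out, and a cluster was named only where at least 3 fixed markers stood among its 50 leading genes and no other class had more among the first 10. This gave 4517 goblet-like, 828 absorptive-like, 1960 cycling, 90 Paneth-like, 33 immune-like and 16 enteroendocrine-like cells, while 2799 cells stayed in unnamed clusters. All 28 goblet markers had UMIs in the goblet-like cells of each library, where they summed to 96690 and 99110 CPM (a gene's share of all UMIs of those cells, in millionths) in DC, and to 258700 and 267500 CPM in Si8. The absorptive-like cells still held 42640 to 107500 CPM of goblet-marker RNA.

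On the genome (GRCm38, GENCODE M21), Guca2a lies on the forward strand of chromosome 4 from 119637704 to 119639471 and Guca2b on the reverse strand of the same chromosome from 119656607 to 119658954. The ligand genes are neighbours, 17135 bases apart with 0 annotated genes between them. Gucy2c lies on the reverse strand of chromosome 6 from 136697284 to 136781765 and has up to 27 exons. No other annotated gene overlaps any of the 3, so reads from an overlapping or antisense partner do not enter their counts.

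The part of each ligand gene that encodes the active peptide is its 3′ coding end, and the last 16 codons are shown because both genes' products bind the same receptor through it. They were read from the GENCODE M21 transcripts, 5′ to 3′, with in-frame cysteine codons in capitals and the stop codon last.
Guca2a: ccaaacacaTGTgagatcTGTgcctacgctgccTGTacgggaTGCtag
Guca2b: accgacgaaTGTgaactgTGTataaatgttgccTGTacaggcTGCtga
The stretches share 30 of 48 bases, or 62.5%, and all 4 cysteine codons fall at the same codons. These cysteines form the paired disulphide bridges of the folded peptides. The full coding sequences run to 351 bases in Guca2a and 393 in Guca2b, against 3219 in Gucy2c.

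The bases upstream of the ligand genes are shown because the neighbours followed separate orders over Si8 cell states (Pearson's r -0.163). In DC their levels went together more closely (Pearson's r 0.734). The sequences come from RefSeq (GRCm38.p6) and stop before the annotated gene start, with matches to 3 motifs of intestinal transcription factors in capitals. The first covers chr4:119637482-119637703 (forward strand) and the second chr4:119658955-119659195 (reverse strand).
Guca2a: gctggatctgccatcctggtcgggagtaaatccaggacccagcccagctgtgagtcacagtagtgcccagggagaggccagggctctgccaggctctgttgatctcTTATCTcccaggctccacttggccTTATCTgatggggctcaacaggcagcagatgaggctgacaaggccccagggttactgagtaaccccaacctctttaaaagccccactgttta
Guca2b: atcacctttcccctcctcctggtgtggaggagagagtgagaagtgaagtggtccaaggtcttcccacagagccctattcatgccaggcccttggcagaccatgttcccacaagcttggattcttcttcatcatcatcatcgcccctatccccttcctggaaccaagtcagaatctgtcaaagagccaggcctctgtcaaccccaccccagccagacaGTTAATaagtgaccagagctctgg
Motifs were searched on both strands of the 250 bases before the RefSeq start. GATA factors were searched for by the letters AGATAA, HNF1 by its half-site GTTAAT and CDX factors by the core letters TTTAT. Guca2a held the GATA letters at -144 and -120 as their reverse complement, and Guca2b held the HNF1 half-site at -33. These positions count from the RefSeq start, which lies downstream of the annotated gene start where the printed bases end. Of the 250 bases searched, 222 are printed for Guca2a and 241 for Guca2b. Of 32851 windows of the same length, 9.99% held the GATA letters, 6.43% the HNF1 half-site and 37.3% the CDX core, which neither ligand window held. A match is a description of these letters only.

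Guca2a was by far the most abundant of the 3 in these counts of RNA molecules, and in goblet-like cells it was much higher in Si8 than in DC. Its level was 1601 CPM (DC 1) and 1722 CPM (DC 2), compared with 10470 CPM (Si8 1) and 11910 CPM (Si8 2). The tissues did not overlap, and the Si8 libraries were the high ones. The median goblet-like cell held 17.0 Guca2a UMIs in each DC library, against 180.5 and 223.0 in Si8. The log2 fold change of DC against Si8 was -3.20 ± 0.162 (SE, n = 2 libraries per tissue), a fold of 9.19, with an adjusted p of 3.35e-06 in edgeR's quasi-likelihood test.

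Guca2b, the less abundant ligand, was also lower in DC goblet-like cells, at 161.0 and 198.9 CPM against 266.0 and 271.3 CPM in Si8. Its log2 fold change was -1.02 ± 0.135 (SE, n = 2 per tissue; edgeR adjusted p 0.000461). The receptor gene Gucy2c stood at 33.02 and 37.59 CPM in the colon libraries, and Si8 held 70.59 and 60.17 CPM. Its log2 fold change was -1.33 ± 0.123 (SE, n = 2 per tissue; edgeR adjusted p 6.73e-05). Neither gene's tissues overlapped, and the gap between tissues was larger than that between libraries.

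All 3 genes were thus lower in DC goblet-like cells, where 23.6% of the 11644 genes tested were called lower, 22.9% higher and 46.5% in either direction. The direction and the call held for each of the 3 under every alternative run, including leaving out each library. Scaling by library totals in place of TMM, edgeR's default scaling factor, moved the median of all genes from 0.0398 to 0.487 on the log2 scale and raised the share of called genes that were higher in DC from 49.3% to 81.4%. Under it the log2 fold changes were -2.75 for Guca2a, -0.58 for Guca2b and -0.88 for Gucy2c. The summed goblet-marker RNA was also lower in DC goblet-like cells, at the levels given above, and its part in these differences was not tested.

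**Figure D1:**
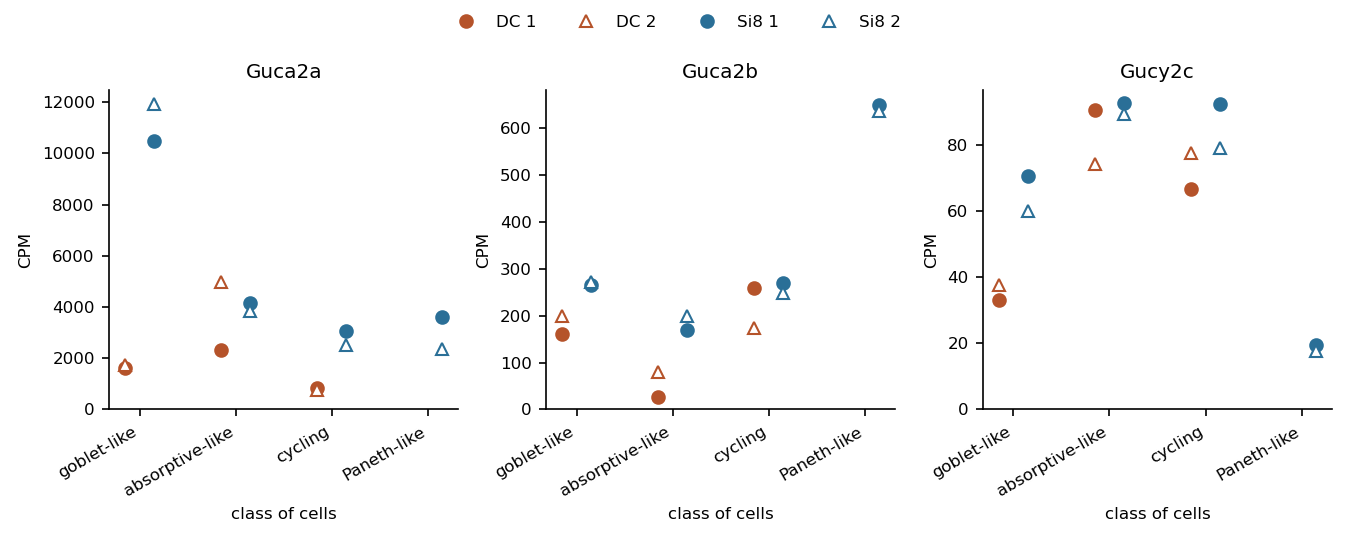
Level of each gene in CPM (linear axis from 0) for 4 classes of cells, with 1 point per library (circles, replicate 1; triangles, replicate 2; DC left of Si8). Guca2a in goblet-like cells reached 11910 CPM in Si8 and at most 1722 CPM in DC, while in absorptive-like cells DC and Si8 overlapped; no Paneth-like cells were named in DC.

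Absorptive-like cells, the class named by enterocyte and colonocyte markers, gave another order. Guca2a stood at 2338 and 4966 CPM in the colon libraries, and Si8 held 4156 and 3831 CPM, so the tissues overlapped, and DC 2 held the highest value. The log2 fold change was -0.19 ± 0.35 (SE, n = 2 per tissue; edgeR adjusted p 0.724). Gucy2c (DC 90.57 and 74.26 CPM, Si8 92.83 and 89.40 CPM) overlapped too, with -0.24 ± 0.206 (SE, n = 2 per tissue; edgeR adjusted p 0.402). A p that misses the threshold does not show that the levels were equal.

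Guca2b was the exception among absorptive-like cells. It stood at 27.38 and 79.73 CPM in DC against 169.3 and 199.7 CPM in Si8, and the log2 fold change was -1.64 ± 0.312 (SE, n = 2 per tissue; edgeR adjusted p 0.00175). The DC values rest on 13 UMIs in DC 1 and 204 in DC 2, and a single DC 2 cell held 95 of the latter. Without DC 2 the log2 fold change was -2.82, and with each cell thinned to 2000 UMIs it was -2.46 (edgeR adjusted p 0.000136). Over all 14 alternatives it ran from -2.82 to -1.11, so the size of the difference was not settled. So 1 of the 3 genes was lower in DC, where 16.6% of 9618 genes tested were called lower, 17.1% higher and 33.7% in either direction.

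The Guca2a comparison changed with which cells were called absorptive-like. In DC the class was cluster 9 alone, led by Car4, Car1, Slc26a3 and Aqp8, genes of the colonic surface. In Si8 it was cluster 6, led by Apoa1 and Fabp6 of the ileal enterocyte, and cluster 8, led by Gsdmc4 and Dmbt1. DC clusters 6 and 10, also led by Gsdmc genes, held 861 cells and stayed unnamed. At a coarser clustering (resolution 0.5) the DC class grew from 56 and 246 to 217 and 992 cells, and Guca2a was then lower in DC (log2 fold change -1.91, edgeR adjusted p 6.5e-05). With the removed doublets kept it was -1.48 (edgeR adjusted p 0.00111), and with all 4 libraries clustered together -1.94 (edgeR adjusted p 0.000255). Without DC 1 the value was 0.25 (edgeR adjusted p 0.513).

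The tissue difference itself was compared between the classes with an interaction term. For Guca2a the difference of absorptive-like over goblet-like was 2.92 ± 0.278 on the log2 scale (SE, n = 2 libraries per tissue, edgeR adjusted p 5.27e-18). With the spread pooled over genes, this p does not rest on the spread of Guca2a in 4 libraries alone. Within single libraries, Guca2a in absorptive-like cells was 1.46 and 2.88 times its goblet-like level in DC, but 0.397 and 0.322 times in Si8. The direction of this ratio therefore differed between the tissues in all 4 libraries. The interaction fell to 1.13 at resolution 0.5 (edgeR adjusted p 1.77e-05), to 1.63 with doublets kept (edgeR adjusted p 1.01e-05) and to 1.27 with all libraries clustered together (edgeR adjusted p 0.00129).

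As a share of all UMIs, Gucy2c was higher in absorptive-like than in goblet-like cells in each library. The ratio was 2.74 and 1.98 in DC and 1.32 and 1.49 in Si8. These ratios carry no TMM factors, which the interaction fit does use. There the Si8 factors were 0.801 and 0.772 for goblet-like and 1.06 and 1.09 for absorptive-like sums. That gap is close in size to the Si8 excess, so the Si8 order of Gucy2c depends on the scaling. The Gucy2c interaction was 1.04 ± 0.19 (SE, edgeR adjusted p 2.61e-06), and was 0.78 (edgeR adjusted p 0.145) with each cell thinned to 2000 UMIs. Guca2b was lower in absorptive-like than in goblet-like cells in each library, at 0.170 and 0.401 times in DC and 0.636 and 0.736 times in Si8. Its interaction was -0.64 ± 0.219 (SE; edgeR adjusted p 0.0188), a call lost in 6 of 15 alternatives. These included leaving out DC 1 (-0.36, edgeR adjusted p 0.163), Si8 1 (-0.75, edgeR adjusted p 0.0742) or Si8 2 (-0.61, edgeR adjusted p 0.205), DESeq2 (-0.75, adjusted p 0.115), and keeping doublets (-0.21, edgeR adjusted p 0.229). Without DC 2 it was -1.62 (edgeR adjusted p 0.00314). All 3 genes were called, against 27.3% of 11812 genes tested. With library totals alone the share of called genes with a positive interaction went from 56.8% to 24.4%, and Guca2a stood at 2.53, Guca2b at -1.03 and Gucy2c at 0.64.

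Summed over all kept cells, where cell types and levels cannot be told apart, Guca2a stood at 1239 and 1360 CPM in DC against 7576 and 6410 CPM in Si8. The log2 fold change was -2.85 (edgeR adjusted p 0.00141). Guca2b was -0.89 (edgeR adjusted p 0.0112) and Gucy2c -0.66 (edgeR adjusted p 0.0441), where 12% of 13084 genes tested were called lower. Both of the weaker calls were lost with library totals alone, at -0.48 (edgeR adjusted p 0.053) and -0.25 (edgeR adjusted p 0.256), under which 80.6% in place of 51.9% of called genes were higher in DC. They were also lost without DC 1 (-0.96 and -0.49, edgeR adjusted p 0.0818 and 0.302) and without DC 2 (-0.82 and -0.85, edgeR adjusted p 0.129 and 0.0922). Gucy2c was lost without Si8 1 as well (-0.57, edgeR adjusted p 0.0612).

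Across cluster states the 3 genes followed separate orders, given here as a description with no test. In Si8, Guca2a was highest in the goblet-like clusters: cluster 1, led by Tm4sf4 and Zg16, at 11410 and 13160 CPM, cluster 2, led by Ttr and Scin, at 11440 and 11990 CPM, and cluster 9 at 10280 and 12880 CPM. These 3 overlapped. The absorptive-like cluster 6 held 4757 and 4787 CPM. Cycling clusters lay on both sides of it, from 5342 CPM in cluster 13 and 4652 and 4996 CPM in cluster 11 to at most 2755 CPM in the larger clusters 5 and 7. Paneth-like cells as a class held 3623 and 2381 CPM of Guca2a. The Paneth-like cluster 12 alone held 1470 CPM in the library with enough cells, Si8 2. Its cells there were deep, with a median of 103532.0 UMIs and 139.0 Guca2a UMIs. Cluster 6 cells of Si8 2 had medians of 25471.0 UMIs and 103.0 Guca2a UMIs. The range over 14 Si8 clusters was 8.37-fold.

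In DC the order of Guca2a was headed not by a goblet-like cluster but by the absorptive-like cluster 9, at 2338 and 4966 CPM. Goblet-like cluster 1, led by Mptx1, Sval1 and Reg4, followed at 2236 and 2316 CPM, just under the lower of the cluster 9 libraries. Goblet-like cluster 2, led by Ffar4 and Cyr61, held 1633 and 1644 CPM. Goblet-like cluster 4, with Zg16 and Clca1 among its leading genes, held only 950.5 and 985.0 CPM and overlapped the Gsdmc-rich cluster 6. The lowest was cluster 12, led by Slfn4 and Saa1, with 89.8 and 248.7 CPM. It stayed unnamed, with 5 goblet markers among its 50 leading genes and 289700 and 318700 CPM of goblet-marker RNA. That cluster also had shallow cells, with a median of 3889 UMIs, and the part of depth was not tested.

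Guca2b followed another order, in which some cycling clusters were high and others were not. In DC the cycling cluster 8, led by Ube2c and Cdc20, held 457.2 and 462.1 CPM. Unnamed cluster 5, with Reg4 and the antigen-presentation genes Cd74 and H2-Aa among its leading genes, held 375.4 and 417.7 CPM. Its 50 leading genes also included 9 goblet markers. The larger cycling cluster 3 held only 119.4 to 145.0 CPM, below goblet-like clusters 1 and 2. Goblet-like cluster 4, led by Zg16, held 38.45 and 61.17 CPM, and cluster 12 held 4.145 and 7.483 CPM, so that the DC range was 79.2-fold. In Si8 the small cycling clusters 17 and 13 stood at 656.3 and 575.0 CPM, each from 1 library with 21 and 34 cells. The cycling cluster 11 and goblet-like cluster 4, led by Ccl9 and Pdia5, held 537.0 to 582.6 and 522.8 to 574.2 CPM and overlapped, while the larger cycling clusters 5 and 7 held 154.5 to 201.9 CPM. Goblet-like cluster 1, the highest for Guca2a, held only 68.87 and 133.4 CPM of Guca2b. Si8 cluster 3, led by Ido1, Saa1 and Mxd1, had the least at 19.86 and 29.91 CPM. It stayed unnamed, with 6 goblet markers among its 50 leading genes and 474300 and 486600 CPM of goblet-marker RNA. Paneth-like cells as a class held 650.6 and 638.2 CPM, and the 33 immune-like cells of Si8 held a similar 686 and 628 CPM.

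As a share of all UMIs, Gucy2c was spread more evenly and was highest outside the goblet-like clusters. In DC the unnamed Gsdmc-rich cluster 10 held 98.98 and 105.8 CPM, and cluster 6, the absorptive-like cluster 9 and the cycling cluster 3 followed between 74.26 and 90.9 CPM and overlapped, while the cycling cluster 8 held 41.64 and 51.27 CPM. The DC goblet-like clusters 1, 2 and 4 lay between 31.93 and 40.54 CPM. In Si8 the 5 highest clusters, 6, 7, 8, 5 and 11, were all absorptive-like or cycling, ran from 66.02 to 96.69 CPM and overlapped each with the next. The small cycling clusters 13 and 17 were lower, at 61.65 and 48.69 CPM. Si8 goblet-like clusters 1, 2, 4 and 9 lay between 55.46 and 77.30 CPM. Paneth-like cells had the least as a share of all UMIs, 19.50 and 17.69 CPM as a class, from 25 and 81 UMIs. Their median depths were 21993.0 and 71435.0 UMIs, against 18895.5 and 19115.0 in Si8 goblet-like cells. Counted per cell, the median was 1.0 Gucy2c UMI in both classes and both Si8 libraries.

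**Figure D2:**
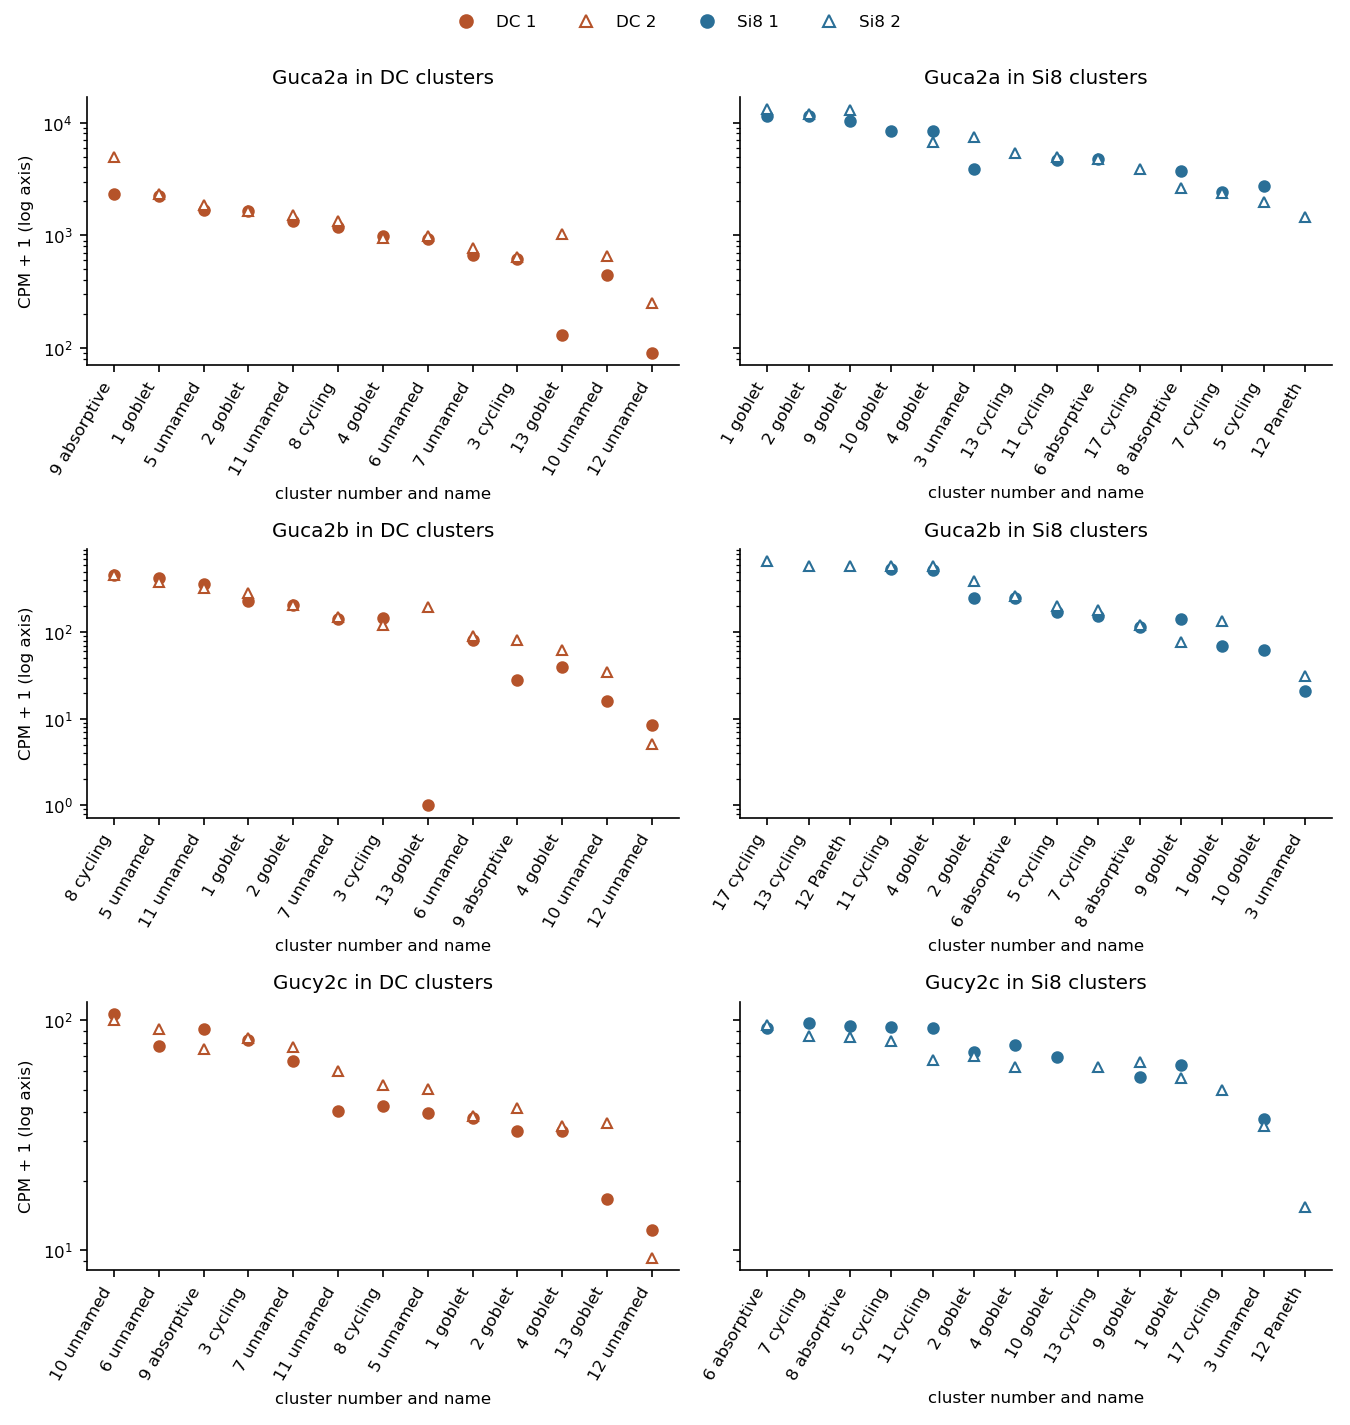
Level of each gene (CPM with 1 added, log axis) in every cluster with at least 20 cells in a library, ordered from highest to lowest mean within each tissue (circles, replicate 1; triangles, replicate 2). Guca2a is headed by goblet-like clusters in Si8 and by the absorptive-like cluster 9 in DC, Guca2b by small cycling clusters, with the larger cycling clusters in mid-order, and Gucy2c by the Gsdmc-rich cluster 10 in DC and the absorptive-like cluster 6 in Si8.

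The ligand-to-receptor balance of UMIs also differed by class. Goblet-like cells held 48.5 and 45.8 Guca2a UMIs per Gucy2c UMI in DC and 148.0 and 198.0 in Si8. Absorptive-like cells held 25.8 and 66.9 in DC and 44.8 and 42.9 in Si8. For Guca2b the same ratio was 4.87 and 5.29 in DC goblet-like and 3.77 and 4.51 in Si8 goblet-like cells, but 0.302 and 1.07 in DC absorptive-like and 1.82 and 2.23 in Si8 absorptive-like cells. These are ratios of counted 3′ ends, not of proteins.

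Guca2a RNA was found in every class of Si8, and its proportion to goblet-marker RNA was set beside its level. Per 1000 goblet-marker UMIs, Si8 goblet-like cells held 40.5 and 44.5 Guca2a UMIs, absorptive-like cells 38.7 and 51.8, cycling cells 44.1 and 49.8, and Paneth-like cells 62.6 and 66.0. Even the 33 immune-like cells of Si8, whose 50 leading genes also included 3 stem markers, held 59.7 and 71.4. The unnamed clusters of Si8 were lower, at 13.0 and 18.6 together and at 8.19 and 15.3 in cluster 3, so the proportion was not the same throughout. Cluster 3 was itself rich in goblet-marker RNA, at 474300 and 486600 CPM, and a larger divisor lowers this ratio. The part of RNA released by goblet cells, or of mixed droplets, in the Si8 absorptive-like level was not tested. In DC the proportion was 16.6 and 17.4 in goblet-like but 34.7 and 116.0 in absorptive-like cells. Goblet-like clusters differed, with 28.7 and 30.3 in cluster 1 but 6.62 and 5.83 in cluster 4. Unnamed cluster 10 held 32.6 and 45.4. The absorptive-like value of DC 1 thus lay near those of clusters 1 and 10, while that of DC 2 stood well above them. Gucy2c UMIs per 1000 goblet-marker UMIs ranged from 0.225 to 0.379 in goblet-like cells over the 4 libraries. In absorptive-like cells they ranged from 0.864 to 1.74. Per 1000 absorptive-marker UMIs the order was the opposite, at 5.44 to 6.71 in goblet-like and 2.48 to 3.63 in absorptive-like cells. The classes were named by these markers, so the ratios do not rank Guca2a or Gucy2c between them.

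Shares of cells with a UMI were compared after thinning every cell to 5000 UMIs, which left out 56 (DC 1), 78 (DC 2), 67 (Si8 1) and 0 (Si8 2) shallower goblet-like cells and 16, 28, 14 and 0 absorptive-like ones. Guca2a was found in 94.4% and 96.1% of DC and in all 757 and 986 of Si8 goblet-like cells. Guca2b was found in 39.6% and 46.7% of DC and in 44.9% and 47.3% of Si8 goblet-like cells, so the tissues overlapped. In absorptive-like cells it was found in 12.5% (exact 95% interval 4.19 to 26.8) and 14.2% (9.87 to 19.6) in DC against 40.8% (32.0 to 50.2) and 49.7% (44.7 to 54.8) in Si8.

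The receptor was found in fewer DC than Si8 goblet-like cells, at 13.2% (exact 95% interval 10.9 to 15.6) and 17.3% (15.6 to 19.2) against 29.1% (25.8 to 32.4) and 28.0% (25.2 to 30.9). In absorptive-like cells it was found in 45.0% and 28.4% in DC and in 40.8% and 35.7% in Si8, with overlapping intervals. Guca2b and Gucy2c together were found in 4.67% and 8.23% of DC and 13.1% and 13.3% of Si8 goblet-like cells, and in 5.00% and 5.50% of DC and 16.7% and 18.6% of Si8 absorptive-like cells. Before thinning, Gucy2c was found in 29.9% and 31.2% of DC and 65.4% and 64.2% of Si8 goblet-like cells, at median depths of 12013.5, 10262.0, 18895.5 and 19115.0 UMIs.

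Immune-like cells of Si8 were set beside these shares. Stem markers came second to immune ones among their leading genes. Their Guca2b level was 686 and 628 CPM, above the 266.0 and 271.3 CPM of Si8 goblet-like cells. The immune-like cells are therefore not taken as a measure of background. At 5000 UMIs they held Guca2a in 9 of 10 and 19 of 19 cells, Guca2b in 7 of 10 and 13 of 19, and Gucy2c in 2 of 10 and 8 of 19, at median depths of 13332.0 and 24940.0 UMIs. The Si8 shares of Guca2a, of Guca2b in goblet-like and absorptive-like cells, and of Gucy2c did not stand clearly above those of immune-like cells. With 10 and 19 immune-like cells, that comparison is too coarse to decide more. The part of RNA from other cells in the shares was not tested, so a UMI is not read as expression by that cell. Paneth-like cells held Guca2b in 96.2% and 85.2% and Gucy2c in 15.4% and 13.1%. Their Guca2b intervals (80.4 to 99.9 and 73.8 to 93.0) overlapped those of immune-like cells (34.8 to 93.3 and 43.4 to 87.4). No immune-like cluster was found in DC. The intervals cover counting error only.

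**Figure D3:**
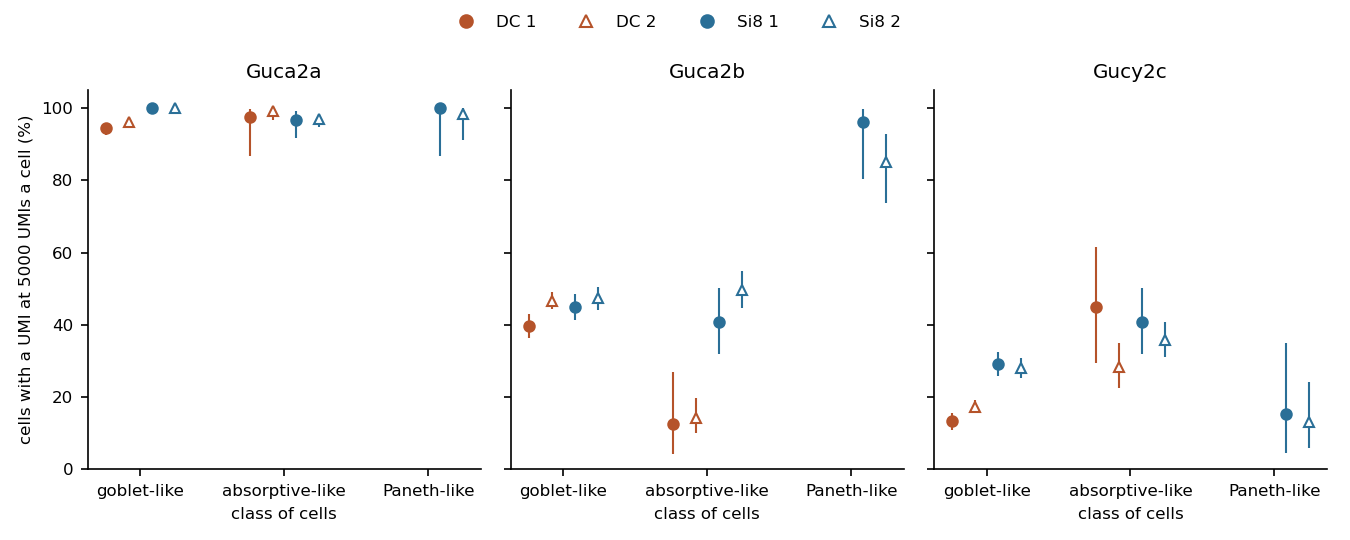
Percent of cells with at least 1 UMI of each gene after thinning to 5000 UMIs a cell, by class and library, with exact 95% binomial intervals as bars (circles, replicate 1; triangles, replicate 2). Gucy2c lies at 13.2% and 17.3% in DC goblet-like cells and at 29.1% and 28.0% in Si8, and Guca2b at 12.5% and 14.2% in DC absorptive-like cells.

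The genes whose levels were most like each member over the cluster sums are given by Pearson's r of log2(CPM + 1), without a p, since sums of 1 library share its depth and composition. Over 24 Si8 sums, Guca2a was most like Cgref1 (0.964), Klk1 (0.963), Bace2 (0.956), Spink4 (0.932) and Lrrc26 (0.924). Over 26 DC sums the genes close to it included Serf2 (0.900), Lamtor2 (0.857), Atox1 (0.842) and Ivns1abp (0.833), and none of these was among those named for Si8. Guca2b was closest to Prkcsh (0.936), Ppib (0.928), Pdia5 (0.927), Ndufa4 (0.924) and Slc25a4 (0.922) in DC. In Si8 its closest were Cd24a (0.838), Hpd (0.817), Rcn1 (0.798), Srm (0.798) and Reg4 (0.793). Gucy2c was closest to Thbs4 (0.972), Gsta4 (0.964), Utp20 (0.964), Lad1 (0.962) and Phldb1 (0.954) in DC, and to Gm11273 (0.954), Atp5k (0.95), Sepw1 (0.937), Klf5 (0.930) and Rnpep (0.927) in Si8.

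Over all 50 sums the closest genes were Dfna5 (0.891), Slc35b1 (0.865), Rgs2 (0.856), Slc43a2 (0.839) and Mgll (0.837) for Guca2a. They were Ceacam10 (0.861), Cldn15 (0.856), Srm (0.839), Fkbp11 (0.833) and Fam110a (0.821) for Guca2b, and Irf8 (0.870), Cyba (0.847), Ndufs4 (0.845), L1cam (0.841) and Calml4 (0.838) for Gucy2c. The neighbouring ligand genes had r = 0.734 with each other over the DC sums but -0.163 over the Si8 sums. Gucy2c had r = 0.474 and 0.403 with Guca2a and Guca2b in DC, and 0.079 and 0.092 in Si8.

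The rest of the cyclic GMP pathway was followed with 52 listed genes. In goblet-like cells 32 were tested, of which 12 were lower and 7 higher in DC and 13 were not called, with a median log2 fold change of -0.28 against 0.0398 over all genes tested. Over all genes 23.6% were called lower, 22.9% higher and 46.5% in either direction. In absorptive-like cells 29 were tested, of which 10 were lower and 8 higher and 11 were not called, with a median of -0.072 against -0.0159, where 33.7% of all genes were called. The counts of the smaller lists below stand against the same 46.5% and 33.7%, and nothing is called particular to a list from them. Of the other 10 cyclases and natriuretic receptors on the list, 1 was tested in goblet-like cells and 0 in absorptive-like cells.

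Of 13 effectors and transporters, 10 were tested in goblet-like cells, with 2 lower and 3 higher in DC, and 11 in absorptive-like cells, with 5 lower and 3 higher. Among them Best2, a bicarbonate and chloride channel of the colonic goblet cell, was found only in DC among goblet-like cells, with 377 and 318 CPM against 0 UMIs in Si8. It was at least 3710-fold higher in DC, counted against a floor of 3 UMIs over both Si8 libraries. In absorptive-like cells it had 138 UMIs in DC and 1 in Si8, a ratio of 586 (exact 95% counting interval 103 to 23300). Ano1, a calcium-activated chloride channel, was higher in DC in both classes, by 3.03 ± 0.197 (edgeR adjusted p 1.08e-05) in goblet-like and 5.76 ± 0.265 (edgeR adjusted p 4.38e-08) in absorptive-like cells on the log2 scale, the latter falling to 4.40 at resolution 0.5 (edgeR adjusted p 2.79e-08). Slc4a4, a sodium-bicarbonate cotransporter, was higher in DC goblet-like cells by 0.94 (edgeR adjusted p 0.0137). That call was lost without DC 2 (0.84, edgeR adjusted p 0.0612), without Si8 1 (0.72, edgeR adjusted p 0.0621), with DESeq2 (0.92, adjusted p 0.0705) and with thinned cells (0.77, edgeR adjusted p 0.202).

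Prkg2, the membrane-bound cyclic GMP kinase of the enterocyte brush border, had 0 UMIs in DC absorptive-like cells against 11.6 and 16.6 CPM in Si8, so it was at least 15.6-fold lower. In goblet-like cells it had 0 UMIs in DC and 5 in Si8 and was not tested. Cftr, the chloride channel that this kinase acts on, stood at 25.3 and 28.9 CPM in colonic and 47.9 and 69.6 CPM in Si8 absorptive-like cells, a log2 fold change of -1.15 (edgeR adjusted p 0.00397). That call was lost when the class was clustered otherwise, with values from -0.52 (edgeR adjusted p 0.128, resolution 2.0) to -0.17 (edgeR adjusted p 0.506, resolution 0.5). In goblet-like cells Cftr was at 2.02 to 6.01 CPM in DC and 1.57 and 2.34 in Si8, 0.64 on the log2 scale (edgeR adjusted p 0.304), and changed sign without DC 2 (-0.43, edgeR adjusted p 0.533). It was called without DC 1 (1.15, edgeR adjusted p 0.0144).

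Slc9a3, the main sodium-hydrogen exchanger of the brush border, had 0 UMIs in goblet-like cells of both tissues and 2 against 0 UMIs in absorptive-like cells. Slc9a2, its relative, was higher in DC absorptive-like cells, at 135 and 117 CPM against 37.7 and 35.1 CPM (log2 fold change 1.71, edgeR adjusted p 6.12e-05). It took the opposite sign at resolution 0.5 (-0.42, edgeR adjusted p 0.0553), with doublets kept (-0.078, edgeR adjusted p 0.748) and with all libraries clustered together (-0.35, edgeR adjusted p 0.135). Slc26a6, an apical anion exchanger, had 2 UMIs in DC and 561 in Si8 absorptive-like cells, a ratio of 66.0 (exact 95% counting interval 18.2 to 547). Kcnq1, a basolateral potassium channel, was lower in DC absorptive-like cells (log2 fold change -1.95, edgeR adjusted p 0.0015), with -0.73 when all libraries were clustered together (edgeR adjusted p 0.0275).

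Of 10 transcription factors of the epithelium, 9 were tested in each class, with 5 lower and 1 higher in goblet-like and 3 lower and 2 higher in absorptive-like cells. Cdx2, a homeobox factor of the intestinal epithelium, was lower in DC in both classes. In goblet-like cells DC held 7.51 and 11.6 CPM of it, Si8 held 80.1 and 92.2 CPM, and the log2 fold change was -3.58 ± 0.199 (SE; edgeR adjusted p 5.32e-06). In absorptive-like cells it was -1.14 (edgeR adjusted p 0.00222). Klf4, a factor of goblet and surface cells, was higher in DC absorptive-like cells by 2.31 (edgeR adjusted p 3.41e-05), but by 1.16 at resolution 0.5 (edgeR adjusted p 0.000889). In goblet-like cells the value was 0.38 (edgeR adjusted p 0.0618).

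Of 6 scaffolds, 5 were tested in goblet-like cells, with 2 lower and 0 higher, and 4 in absorptive-like cells, with 1 lower and 1 higher. Slc9a3r1, which ties channels and exchangers to the membrane, was lower in DC goblet-like cells (log2 fold change -2.02, edgeR adjusted p 6.27e-06) and its log2 fold change was 0.13 in absorptive-like cells (edgeR adjusted p 0.677). Ezr, the linker of scaffold and actin, was higher in DC absorptive-like cells by 1.71 (edgeR adjusted p 0.000117), but by 0.58 with all libraries clustered together (edgeR adjusted p 0.0356). Of 13 genes that break down or export cyclic GMP, 7 were tested in goblet-like cells, with 3 lower and 2 higher, and 5 in absorptive-like cells, with 1 lower and 2 higher. Abcc5, a nucleotide exporter, had 0 UMIs in DC and 94 in Si8 goblet-like cells and was at least 27.7-fold lower in DC. Abcc4, another exporter, was higher in DC goblet-like cells by 1.44 (edgeR adjusted p 0.00403), and Pde6d, a carrier subunit named for phosphodiesterase, was lower (-1.08, edgeR adjusted p 0.000562).

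**Figure D4:**
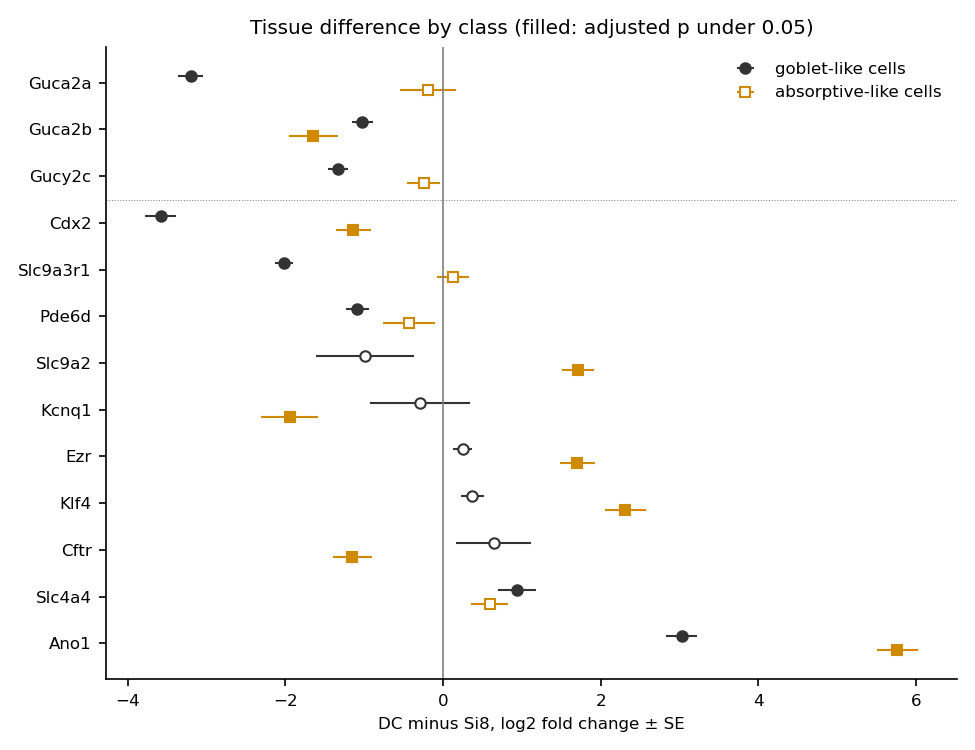
Log2 fold change of DC against Si8 with its SE for the 3 genes (above the dotted line) and for 10 genes of the cyclic GMP pathway with enough counts, in goblet-like (circles) and absorptive-like cells (squares); filled symbols passed an adjusted p of 0.05 in edgeR. Guca2a lies at -3.20 in goblet-like and -0.19 in absorptive-like cells; near-absent genes such as Best2 and Prkg2 are not drawn.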

How the data were processed

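The deposited files are raw UMI counts per gene and cell, made by the authors from 10x 3′ v2 libraries with Cell Ranger 2.1.1 on mm10, per the submitters' processing notes; no source used here gives the annotation version. The 3 genes, the marker lists and the 52 pathway genes were chosen with earlier results of these data known. Cells with under 500 genes or over 20% mitochondrial counts were left out (305), and then 279 by the highest scrublet scores at 0.8% per 1000 cells, since the automatic threshold marked only 20 (0.19%). The 223 listed genes were kept out of clustering. Cells were clustered in scanpy 1.11.5 (2000 variable genes, 30 components, 5 neighbours per library, Leiden resolution 1.0) within each tissue, a choice made after joint clustering had mixed DC goblet cells with Paneth cells. A cluster was named where at least 3 markers, and more than of any other class, stood among its 50 leading genes, and no other class had more among the first 10; clusters under 10 cells, or shallow ones with no marker among the first 10, stayed unnamed.

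Counts were summed per library and class (at least 20 cells for a level) and tested with edgeR 4.0.16 (R 4.3.3): quasi-likelihood fit, TMM factors, a filterByExpr minimum count of 10, and Benjamini-Hochberg adjustment over all genes tested, threshold 0.05. Only the libraries of the comparison entered a fit, and the interaction carried a library block. SE is the log2 fold change divided by the root of the F statistic. The test was checked on simulated data. Named pathway genes were up to 8 called genes per class by size of change, plus Prkg2, Cftr and Slc9a3; for each gene the 5 most alike were named among genes reaching 50 CPM, of which 1 is not reported here. Alternatives were library totals, no filter, DESeq2 1.42.0, each library left out, a replicate block, cells thinned to 2000 UMIs, resolutions 0.5 and 2.0, doublets kept, and, chosen after seeing the data, joint clustering and wider or narrower classes. Exact binomial (Clopper-Pearson) intervals and the floor of 3 UMIs cover counting error only.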

Additional observations from a re-analysis of the deposited data

Results flagged for a closer look

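The tissue difference (DC minus Si8, log2 scale) differed between absorptive-like and goblet-like cells in edgeR's interaction test for the 11 genes below, where 27.3% of 11812 genes tested were called. The pathway genes among them were mostly named for a large called change in 1 class, which favours a difference between classes. Each value is the absorptive-like difference minus the goblet-like one. For the members it was 2.92 for Guca2a (edgeR adjusted p 5.27e-18), -0.64 for Guca2b (edgeR adjusted p 0.0188) and 1.04 for Gucy2c (edgeR adjusted p 2.61e-06). Positive values mean that DC stood relatively higher in absorptive-like cells.

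Among channels and transporters, Cftr had -1.98 (edgeR adjusted p 5.41e-08), Slc9a2 2.61 (edgeR adjusted p 3.75e-09), Kcnq1 -1.89 (edgeR adjusted p 0.000873) and Ano1 2.62 (edgeR adjusted p 4.74e-15). The scaffold genes Slc9a3r1 and Ezr had 2.18 (edgeR adjusted p 8.97e-21) and 1.49 (edgeR adjusted p 6.58e-11). The transcription factors Cdx2 and Klf4 had 2.41 (edgeR adjusted p 1.74e-20) and 1.98 (edgeR adjusted p 4.39e-15). Best2 and Slc26a6 were also called, but their fitted values are not given because each had 3 or fewer UMIs in a tissue and class.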

How the results depend on the processing

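In goblet-like cells all 3 genes kept direction and call under each of 14 alternatives. In absorptive-like cells Guca2a ran from -0.84 to 0.25 over the fits without 1 library and was called at resolution 0.5 (-1.91), with doublets kept (-1.48) and with joint clustering (-1.94). Over all cells Guca2b was -0.48 with library totals and -0.96 to -0.82 without 1 library. There Gucy2c was -0.25 with library totals, -0.69 with thinned cells and -0.85 to -0.49 without 1 library. The Guca2b interaction was -0.75 with DESeq2, -0.21 with doublets kept and -1.62 to -0.36 without 1 library, and the Gucy2c interaction was 0.78 with thinned cells. With doublets kept, goblet-like Cftr was -0.11, and without 1 library it ran from -0.43 (without DC 2) to 1.15 (without DC 1). Absorptive-like Slc9a2 was -0.42 at resolution 0.5, -0.078 with doublets kept and -0.35 with joint clustering.

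Called genes numbered 5419 in goblet-like cells, 2550 with thinned cells. In absorptive-like cells they numbered 3237, against 1875 (DESeq2), 1134 (thinned), 1938 (clusters with 10 or more markers) and 1850 (without DC 2) to 2920. Over all cells they numbered 3253, against 5171 (library totals), 1735 (thinned) and 1411 (without DC 2) to 4060, with 1549 without DC 1. The interaction called 3230, against 1539 (DESeq2), 901 (thinned), 2100 (joint), 1695 (clusters with 10 or more markers) and 1493 (without Si8 2) to 2737, with 1661 without DC 2 and 2106 without Si8 1.

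The replicate numbers pair the samples by number only: deviations of DC 1 and Si8 1 correlated at 0.361 over 5444 genes in a single pair of numbers. The replicate block gave -0.58 for the Guca2b interaction (edgeR adjusted p 0.123) and changed no other call of the 3 genes. It gave 6518, 4020, 3923 and 2916 called genes in goblet-like cells, absorptive-like cells, all cells and the interaction.

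At 2000 UMIs a cell the shares for DC 1, DC 2, Si8 1 and Si8 2 were lower. In goblet-like cells Guca2a was in 81.8% and 86.7% of DC cells, Guca2b in 20.3%, 26.8%, 26.2% and 29.6%, Gucy2c in 7.06%, 8.26%, 10.6% and 10.9%, and Guca2b with Gucy2c in 1.57%, 2.26%, 3.16% and 3.45%. In absorptive-like cells Guca2a was in 73.2%, 94.3%, 91.8% and 90.3%, Guca2b in 1.79%, 2.85%, 23.1% and 26.5%, Gucy2c in 16.1%, 15%, 16.4% and 16.6%, and Guca2b with Gucy2c in 0.0%, 0.407%, 2.99% and 5.87%; 0 of 56 DC 1 cells allows up to 5.36%. In Paneth-like cells Guca2b was in 65.5% and 67.2% and Gucy2c in 6.90% and 4.92%. The cause of these shifts beyond depth was not tested.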
